A study of Mus musculus with 34 samples.

Results

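Transcription factors of the hepatocyte lineage were followed through mouse liver RNA by 9 genes: Hnf4a, Nr5a2, Foxa1, Foxa2, Foxa3, Cebpa, Cebpb, Onecut1 and Prox1. They were chosen by name and not by their values, though earlier results of these data were known. All 9 of 9 names had a row among the 37583 genes of the files. The livers came from F1 mice (C57Bl6/CBA) aged 45 days, labelled Wild type (WT) or Setd8lox/lox-Alb-Cre (KO). Setd8, named Kmt5a in the annotation, encodes a methyltransferase of histone H4, and Cre from the Alb-Cre transgene acts in cells that use the albumin promoter, so that other liver cells keep the gene. The labels do not say whether WT mice carried the floxed allele or the transgene. Libraries of mRNA numbered 3 for each genotype. Newly made RNA was sequenced with 1 WT and 1 KO library per method. In the ethynyl uridine (EU) method, mice received 25 mg per kg EU 30 min before death and labelled nuclear RNA was captured. In the bromouridine (Br) method, isolated nuclei ran on for 3 min. The comparison asked whether the factors that define hepatocytes differed between the labelled genotypes.

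Hepatocyte identity rests on a small set of factors that bind each other's genes as well as those of liver enzymes and plasma proteins. FOXA proteins are pioneer factors that open closed chromatin, HNF4A and NR5A2 are nuclear receptors, C/EBP proteins are leucine zipper factors, and ONECUT1 and PROX1 are homeodomain proteins. In the adult liver they maintain transcription of genes for lipoproteins, clotting factors, bile acid synthesis and glucose production.

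Libraries summed to 18069344 to 25820906 scaled reads per mRNA library, and held 10833287 (WT) and 5583983 (KO) reads for EU and 3156055 and 2317840 for Br. WT replicate 3 stood apart, where 20077 genes were above 0 (24497 to 26247 elsewhere), so results that rest on it are given with and without it. Kmt5a mRNA was not lower in the libraries labelled KO, with 593, 615 and 1076 scaled reads in WT and 1199, 1040 and 1075 in KO (log2 0.59, limma adjusted p = 0.244, and 0.87 with 0.0206 without WT replicate 3). A count over the whole gene tests the loss of a floxed exon only in part, and groups are called by their labels. The hepatocyte markers Alb, Apoa1, Ttr, Trf, Fgb, Cps1, Asgr1 and Cyp3a11 summed to 1835854 to 2852996 scaled reads in WT and 1881852 to 2069349 in KO. WT replicate 3 gave the highest sum, and WT replicates 1 and 2 gave 1888119 and 1835854. Limma called 0 of these 8 markers, where it called 2.71% of all tested genes. DESeq2 called Ttr among them (log2 0.68, DESeq2 adjusted p = 0.0177), where it called 10.8% of all genes. No label states that replicates are separate animals. The p-values therefore refer to the spread among libraries, part of which may be technical.

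Stretches upstream of annotated RefSeq starts are shown for Hnf4a, Foxa2, Cebpa and Nr5a2, the 4 members that were at least 2-fold lower in the KO library in EU RNA, a choice made after their values were seen. They are from build GRCm38.p6, run 5′ to 3′ on the strand of the gene, and leave out every base that GENCODE annotates as exon of the gene, so that the first stretch ends 49 bases short of its start. Foxa2 and Nr5a2 have several annotated starts, of which the most upstream is shown. Capitals mark letters of a binding motif or TATA box. Hnf4a has an upstream and a downstream start, and the downstream one is known as the start used in adult hepatocytes. The counts per gene do not separate them.
Hnf4a, upstream start, chr2:163506607-163506807, plus strand: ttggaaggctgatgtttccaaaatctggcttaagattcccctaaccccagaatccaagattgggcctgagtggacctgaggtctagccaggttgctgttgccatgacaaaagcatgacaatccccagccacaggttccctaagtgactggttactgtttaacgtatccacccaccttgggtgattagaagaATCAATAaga
Hnf4a, downstream start, chr2:163546943-163547154, plus strand: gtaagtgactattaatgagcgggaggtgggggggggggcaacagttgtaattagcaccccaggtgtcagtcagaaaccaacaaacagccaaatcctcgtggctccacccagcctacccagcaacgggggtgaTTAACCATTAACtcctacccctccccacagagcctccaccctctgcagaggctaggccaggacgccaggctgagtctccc
Foxa2, chr2:148046970-148047219, minus strand: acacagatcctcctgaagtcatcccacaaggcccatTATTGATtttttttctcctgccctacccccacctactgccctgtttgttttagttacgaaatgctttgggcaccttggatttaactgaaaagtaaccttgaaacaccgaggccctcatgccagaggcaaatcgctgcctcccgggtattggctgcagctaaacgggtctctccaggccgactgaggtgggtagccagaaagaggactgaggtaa
Cebpa, chr7:35119043-35119292, plus strand: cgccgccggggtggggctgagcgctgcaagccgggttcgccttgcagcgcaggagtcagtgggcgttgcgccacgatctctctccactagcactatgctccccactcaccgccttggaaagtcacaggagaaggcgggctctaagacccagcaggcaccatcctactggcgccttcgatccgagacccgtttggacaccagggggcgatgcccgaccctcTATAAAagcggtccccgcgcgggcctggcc
Nr5a2, chr1:136960449-136960698, minus strand: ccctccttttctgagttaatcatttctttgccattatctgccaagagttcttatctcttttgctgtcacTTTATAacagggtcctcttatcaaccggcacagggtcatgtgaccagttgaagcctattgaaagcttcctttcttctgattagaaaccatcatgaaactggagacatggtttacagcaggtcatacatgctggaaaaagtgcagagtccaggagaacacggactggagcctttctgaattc

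Letters of 7 motifs were searched on both strands, with letters chosen after the sequences of these starts had been looked at, in the 250 bases before each of 14 annotated starts of the 9 genes and, for comparison, before all 32851 starts in the RefSeq table. The ONECUT motif ATCAATA stood before the upstream Hnf4a start and, on the opposite strand, before the Foxa2 start, and was found before 1.86% of all starts. The HNF1 motif, GTTAAT followed by any 2 bases and TTAA, stood on the opposite strand before the downstream Hnf4a start, 80 to 69 bases upstream of it, and was found before 0.131% of all starts. The FOXA motif TGTTTAC was found before the Foxa1 start (3.17% of all starts). The TATA box letters TATAAA were found before 5 of the 14 starts (12.4% of all starts), 181 to 176 bases before the printed Nr5a2 start on the opposite strand, and 30 to 25 bases before the Cebpa start and 36 to 31 before the Foxa3 start on the gene's own strand. The letters TTGCGNAA (C/EBP), CAAAGTCCA (HNF4) and CAAGGTCA (NR5A) were found before 0.67%, 0.384% and 1.33% of all starts and before none of the 14. None of these motifs overlapped another in the printed stretches, and a match is a match of letters, not a measured site.

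In WT liver the 9 mRNAs spanned a wide range of levels. Per kilobase of annotated exon, Cebpa was highest at 7479 ± 1201 scaled reads (SD, n = 3), followed by Hnf4a at 2854 ± 1104, Cebpb at 1205 ± 273 and Foxa3 at 783.5 ± 97.8. These 4 did not overlap with their neighbours in the order over the 3 WT libraries. Foxa2 followed at 300.8 ± 118 and overlapped with Prox1 at 171 ± 28.4. Foxa1 (104 ± 36.0), Onecut1 (102 ± 78.4) and Nr5a2 (84.0 ± 6.61) overlapped with one another. In KO the order of the highest 4 was the same, from Cebpa at 5928 ± 366 to Foxa3 at 637.5 ± 47.6 per kilobase, while Onecut1 was lowest at 35.3 ± 14.3 and did not overlap with Foxa1 (97.1 ± 29.4). Exon lengths came from a later annotation than the authors' build, so order between genes of similar level is approximate.

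None of the 9 factors differed between genotypes in mRNA at an adjusted p under 0.05 (limma, Benjamini-Hochberg over all 16813 genes tested), where 2.71% of all tested genes did. At an unadjusted limma p under 0.05 there were 2 of the 9, Onecut1 and Prox1, against 20% of all tested genes. Of all tested genes 1.35% were called higher and 1.36% lower. On the same libraries edgeR called 0 of the 9 (3.03% of all genes) and DESeq2 called 1, Onecut1 (10.8%). Limma called 0 of the 9 without WT replicate 3 (9.69%) and 0 with a replicate block (6.03%). The fitted log2 differences of KO against WT, on log2 of the scaled value plus 1, lay between -1.30 and 0.54 with a median of -0.08, against a median of 0.0023 over all tested genes. The WT and KO libraries did not overlap for 1 of the 9, Foxa3, against 26% of all tested genes. In bulk liver a smaller share of cells and less RNA per cell cannot be told apart.

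**Figure D1:**
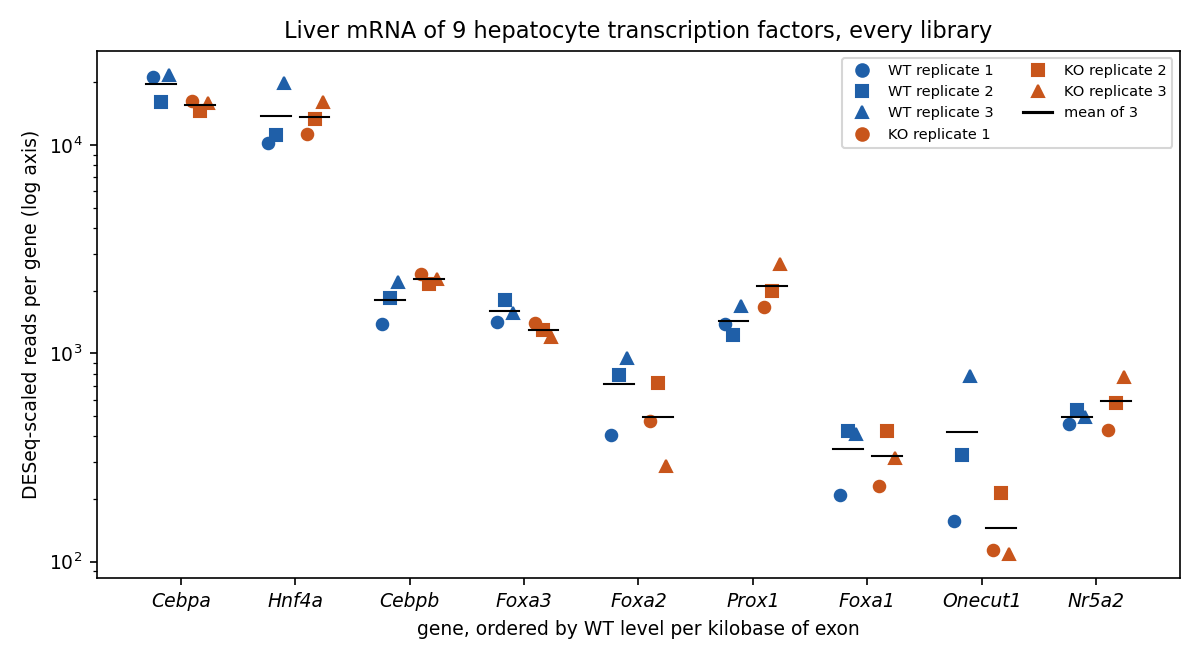
DESeq-scaled reads per gene on a log axis for each of the 3 WT and 3 KO mRNA libraries, with a bar at the mean of each group and genes ordered by WT level per kilobase of exon. WT and KO points overlap for 8 of the 9 genes, and only the Foxa3 groups do not overlap, while the WT points of Onecut1 run from 157 to 780.

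Hnf4a encodes a nuclear receptor that binds many hepatocyte promoters. It had 10196, 11238 and 19905 scaled reads in WT and 11342, 13356 and 16102 in KO. WT replicate 3 held the highest value of all 6 libraries, and the other 2 WT libraries lay below all 3 KO libraries. The log2 difference was 0.03 (SE 0.29, limma adjusted p = 0.968), with a 95% interval from 0.64-fold to 1.63-fold. Without WT replicate 3 it was 0.33 (adjusted p = 0.358), and it took the opposite sign without WT replicate 1, WT replicate 2 or KO replicate 3 and with edgeR or DESeq2.

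Nr5a2, also called LRH-1, encodes a nuclear receptor of bile acid and glucose metabolism. It had 457, 535 and 494 scaled reads in WT and 427, 580 and 770 in KO. The KO libraries lay on both sides of the WT libraries, with KO replicate 3 the highest. Its log2 difference was 0.22 (SE 0.24, limma adjusted p = 0.675).

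The 3 Foxa genes encode pioneer factors with the same type of forkhead domain. Foxa1 had 209, 422 and 410 scaled reads in WT and 230, 425 and 314 in KO, a fitted change of -0.08 (log2, SE 0.34, limma adjusted p = 0.931). The groups covered almost the same range, and the sign was opposite with TMM scaling and without WT replicate 2, WT replicate 3 or KO replicate 1. Foxa2 had 404, 785 and 950 in WT and 474, 720 and 289 in KO, or -0.54 for KO over WT (log2, SE 0.41, limma adjusted p = 0.516). Foxa2 varied 2.35-fold among the WT libraries and 2.49-fold among the KO libraries, more than the fitted difference between the groups. The size of that difference depended on the libraries, at -0.28 without WT replicate 3 and -0.90 to -0.20 over the libraries left out.

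Foxa3, the most abundant Foxa mRNA in these livers, had 1411, 1807 and 1570 scaled reads in WT and 1394, 1302 and 1200 in KO. Every KO library lay below every WT library, the nearest 2 by only 17 scaled reads. The log2 difference was -0.29 (SE 0.18, limma adjusted p = 0.415) and kept its sign in each of the 15 alternatives run. Of the 3 Foxa mRNAs per kilobase of exon, Foxa3 made up 59.5% to 74.8% in the WT libraries and 59.7% to 73.1% in the KO libraries, which overlapped. Foxa1 made up 6.78% to 9.52% and 7.25% to 11.9%, and Foxa2 18.4% to 31.0% and 15.1% to 28.4%.

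Cebpa encodes the C/EBP protein of the resting, metabolic hepatocyte, and Cebpb the one known for the acute phase and for regeneration. Cebpa had 21279, 16071 and 21797 scaled reads in WT and 16380, 14540 and 15960 in KO. Its log2 difference was -0.32 (SE 0.21, limma adjusted p = 0.443), and the lowest WT library fell within the KO range. Cebpb had 1386, 1845 and 2204 in WT and 2402, 2146 and 2288 in KO, or 0.35 for KO over WT (log2, SE 0.21, limma adjusted p = 0.403). Only WT replicate 3 reached the KO range for Cebpb, and without it the difference was 0.51 (adjusted p = 0.119).

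The ratio of the 2 C/EBP mRNAs within each library, which does not depend on the scaling between libraries, did not overlap between the groups. Cebpa exceeded Cebpb 15.3-fold, 8.71-fold and 9.89-fold in the WT libraries and 6.82-fold, 6.77-fold and 6.97-fold in the KO libraries. All 3 KO libraries lay below all 3 WT libraries and close to one another. Of single tested genes 26% did not overlap between the groups, and the share over ratios of 2 genes was not computed. Mean log2 ratios were 3.46 ± 0.43 (WT) and 2.78 ± 0.022 (KO, SD, n = 3 each), a difference of -0.68 (two-sided exact permutation p = 0.1, the smallest that 3 against 3 can give). With a library left out the difference ran from -0.85 to -0.44. Cebpb is also made by macrophages, and the summed myeloid markers given below did not overlap between genotypes. Their part in this ratio was not tested.

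Onecut1, also called HNF6, encodes a homeodomain factor of liver and bile duct development. It had 157, 324 and 780 scaled reads in WT and 114, 213 and 109 in KO. Its WT values spread 4.97-fold, and its residual SD of 0.90 on the log2 scale lay at percentile 88.1 of all tested genes. The log2 difference was -1.30 (SE 0.55, limma adjusted p = 0.237), with a 95% interval from 0.17-fold to 0.97-fold. DESeq2 called it (log2 -1.52, adjusted p = 0.0472), while limma did not call it, nor did any of the other 14 alternatives. Without WT replicate 3, the library with 780, the difference was -0.70 (limma adjusted p = 0.279, and 0.0472 to 0.434 over all alternatives).

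Prox1 encodes a homeodomain factor that represses bile acid synthesis in hepatocytes and specifies lymphatic vessels. It had 1383, 1227 and 1695 scaled reads in WT and 1671, 1994 and 2676 in KO. The highest WT library, replicate 3, lay just above the lowest KO library. The log2 difference was 0.54 (SE 0.23, limma adjusted p = 0.238), and 0.67 without WT replicate 3 (adjusted p = 0.0928). Markers with lymphatic endothelium among their sources (Lyve1, Pdpn, Flt4, Mmrn1 and Reln, 5 of 6 with a row) summed to 1387 to 1759 in WT and 2002 to 2629 in KO. None of the 5 was called (2.71% of all tested genes were), and none was at 0 in any library. Their part in the Prox1 values was not tested.

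Newly made RNA was compared between the genotypes as a log2 ratio, KO over WT, of reads per library, centred on the median gene with at least 20 reads. Each method has 1 library per genotype, so there is no test, and the 95% intervals (exact, Clopper-Pearson) cover counting error only. In EU RNA, 4 of the 9 factors were at least 2-fold lower in the KO library and 0 at least 2-fold higher, where 22.9% and 24.9% of all genes were (47.8% either way). In Br RNA none of the 9 differed 2-fold, where 14.1% of all genes did (7.34% higher and 6.77% lower). The median over the 9 genes was -0.58 in EU and -0.14 in Br, against 0 over all genes by construction.

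**Figure D2:**
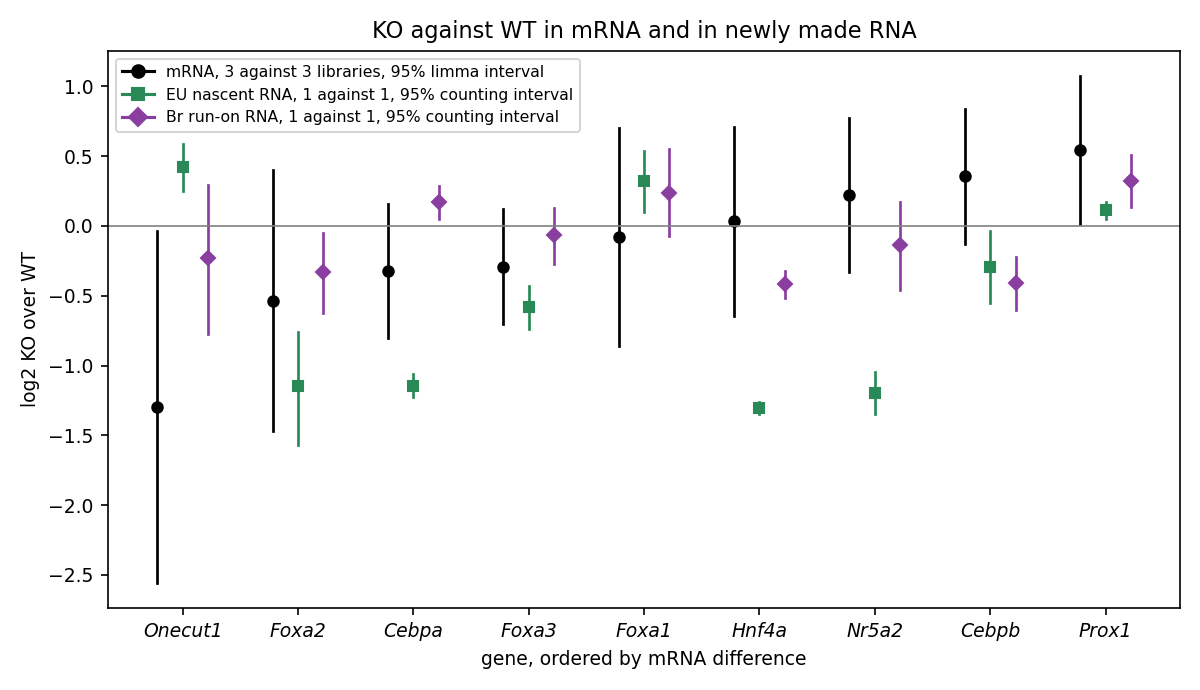
Log2 KO over WT for each factor in mRNA (circles, 3 against 3 libraries, 95% limma interval), EU RNA (squares) and Br run-on RNA (diamonds, both 1 against 1, 95% counting interval), with genes ordered by the mRNA difference. In EU, Hnf4a, Nr5a2, Foxa2 and Cebpa lie between -1.30 and -1.14, while their Br values lie between -0.42 and 0.17.

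For Hnf4a the EU libraries held 22986 reads (WT) and 4750 (KO), a centred log2 ratio of -1.30 (-1.35 to -1.26). Its Br reads were 2467 and 1356, a ratio of -0.42 (-0.51 to -0.32). Both methods placed Hnf4a lower in the KO library, at percentile 18.4 of all genes in EU and 23.7 in Br, while its mRNA differed by 0.03. Foxa2, with 284 and 65 EU reads and 280 and 163 Br reads, was also lower in both, at -1.15 (-1.57 to -0.76) and -0.33 (-0.62 to -0.050). Its mRNA difference had the same sign and did not pass the test.

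For Cebpa there were 6209 WT and 1433 KO reads in EU, giving -1.14 (-1.23 to -1.06). Its Br reads were 1253 and 1034, a ratio of 0.17 (0.049 to 0.29). The methods thus placed Cebpa on opposite sides of the median gene. Nr5a2 had 1912 and 426 EU reads, giving -1.19 (-1.35 to -1.04). Its Br reads were 213 and 142, giving -0.14 with an interval that includes 0 (-0.46 to 0.18).

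Prox1 was higher in the KO library in both methods, with EU reads of 5938 and 3273 (0.11, 0.049 to 0.17) and Br reads of 498 and 458 (0.33, 0.14 to 0.51). These ratios have the sign of its mRNA difference. Cebpb was lower in both, at -0.29 (-0.55 to -0.037) in EU and -0.41 (-0.61 to -0.22) in Br, whereas its mRNA difference was 0.35. For Cebpb newly made RNA and mRNA therefore lay on opposite sides of 0, with 425 and 177 EU reads and 631 and 348 Br reads behind the ratios.

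Onecut1, lowest of the 9 in its mRNA difference, had 721 and 492 EU reads, a ratio of 0.42 (0.25 to 0.59). Its Br ratio was -0.23, from 80 and 50 reads, with an interval from -0.77 to 0.30. Foxa1 was higher in EU at 0.32 (0.10 to 0.54) and had a Br ratio of 0.24 (-0.075 to 0.55). Foxa3 was lower in EU at -0.58 (-0.74 to -0.43) and had a Br ratio of -0.07 (-0.27 to 0.13). Counting intervals excluded 0 for all 9 in EU and for 5 in Br (Hnf4a, Foxa2, Cebpa, Cebpb and Prox1), where they did for 79% and 40% of all genes, so that exclusion of 0 is common among these single libraries.

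Several members share their locus with other transcripts, and the sources used here do not say whether reads were counted by strand. Hnf4aos, an antisense RNA that overlaps Hnf4a, was looked at after its values were seen. It had 188, 175 and 188 scaled reads in WT and 50, 47 and 102 in KO. Every KO library lay below every WT library for Hnf4aos (26% of all tested genes did not overlap). Its log2 difference was -1.55 (SE 0.34, limma adjusted p = 0.0537), just short of the threshold, and -1.53 without WT replicate 3 (adjusted p = 0.0399, and 0.00179 to 0.234 over all alternatives, 8 of 15 of which called it). In EU it had 265 and 42 reads, a ratio of -1.67 (-2.19 to -1.21), and in Br 368 and 176, a ratio of -0.62 (-0.89 to -0.36). Hnf4aos thus lay below the median gene in all 3 assays, and Hnf4a itself in EU and Br. Reads of Hnf4a and Hnf4aos from shared positions cannot be told apart. Prox1os, antisense to Prox1, had 48 to 141 scaled reads in WT and 91 to 108 in KO (log2 0.26, limma adjusted p = 0.775). In EU Prox1os had 41 and 15 reads, a ratio of -0.45 (-1.44 to 0.40), and in Br 8 and 18, a ratio of 1.57 (0.34 to 3.03). Tmem189, which overlaps Cebpb on the opposite strand, differed by 0.18 in mRNA (log2, limma adjusted p = 0.756). It had 64 (WT) and 0 (KO) reads in EU and 40 and 30 in Br.

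The 9 factors also differed in how much newly made RNA they had for their mRNA in WT liver. The share of EU reads divided by the share of scaled mRNA reads was 8.46 for Prox1 and 7.78 for Nr5a2, at percentiles 93.7 and 92.7 of 12147 genes with values in all assays, whose median was 1.40. It was 3.71 for Onecut1, 3.48 for Hnf4a, 2.66 for Foxa1 and 1.72 for Foxa3. Foxa2 (0.83), Cebpa (0.64) and Cebpb (0.48) lay below the median. Cebpa and Cebpb have no introns, and across the 9 genes, which are not independent replicates and share these libraries, the EU ratio followed the gene's span on the chromosome with a Spearman correlation of 0.90. It was 0.39 over 11827 genes with an annotated span. Span was looked at after these values were seen, and whether intron reads were counted is not given in the labels.

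In Br the same ratio did not follow span among the 9 genes (Spearman 0.017, and 0.12 over all genes). It ran from 0.44 for Cebpa, percentile 10.3, to 3.77 for Foxa1, percentile 75.3, against a median of 1.83. Cebpa was below the median in both methods, and Cebpb was below it in EU and above it in Br at 2.45.

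**Figure D3:**
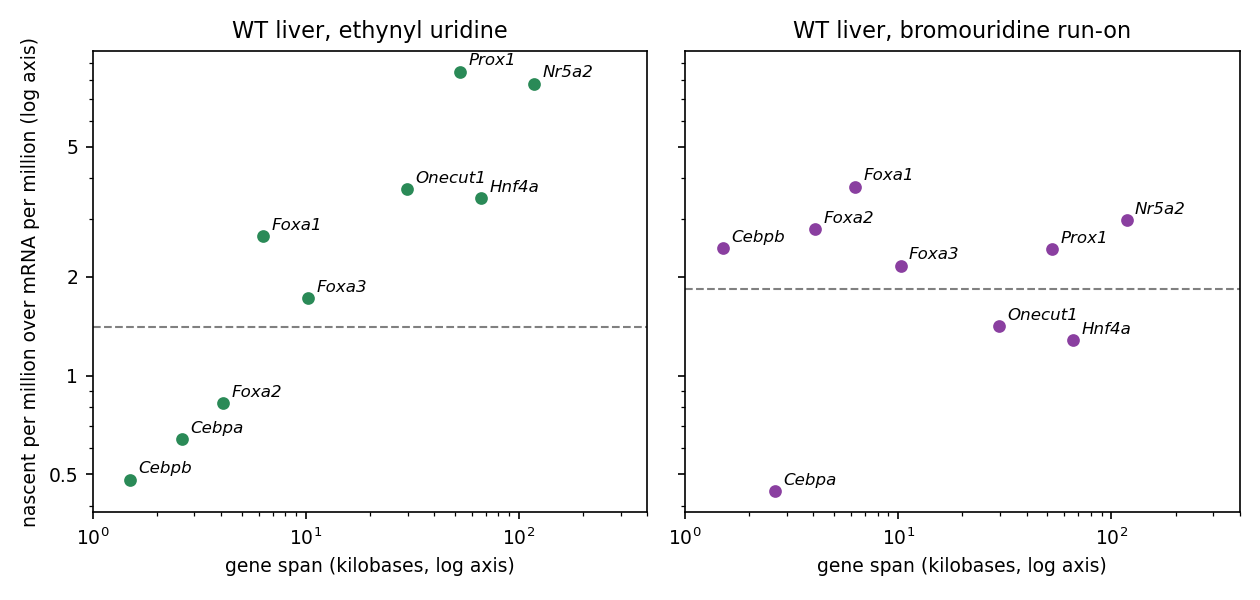
A gene's share of newly made RNA reads divided by its share of scaled mRNA reads in WT liver, against the genomic span of each gene (GENCODE, GRCm38), both on log axes, for EU (left) and Br (right). The dashed line is the median of 12147 genes, 1.40 in EU and 1.83 in Br. The EU points tend to rise with span from Cebpb at 0.48. Prox1 is highest at 8.46, though Hnf4a and Nr5a2 have longer spans. The Br points do not follow span.

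Other genes of the liver factor network were taken from lists of textbook liver genes. Of 26 other liver factors 25 were tested, and 0 were called, with a median of -0.07. Of 9 cofactors 0 were called, with a median of -0.10, where limma called 2.71% of all tested genes. Together 6 of the 34 tested genes had an unadjusted limma p under 0.05 (20% of all genes), edgeR called 0 (3.03%) and DESeq2 called 2, Hnf4g and Ppara (10.8%). Hnf4g, the paralog of Hnf4a, had 113, 136 and 13 scaled reads in WT and 25, 5 and 12 in KO (log2 -2.25, limma adjusted p = 0.224), with WT replicate 3 within the KO range. Without that library Hnf4g, Ppara and the coactivator gene Ppargc1b were called, 3 of the 34 where 9.69% of all genes were. Hhex, an early endoderm factor, had 1484, 3946 and 2404 in WT and 980, 1561 and 1554 in KO (log2 -0.85, limma adjusted p = 0.237). Ppargc1b had 381, 438 and 254 against 195, 152 and 274 (log2 -0.79, limma adjusted p = 0.192), and the acetyltransferase gene Ep300 differed by 0.37 (0.473).

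Textbook targets of the factors were not called either, 0 of 48 tested genes, with a median of 0.053, where 2.71% of all genes were called, and 6 of them had an unadjusted limma p under 0.05 (20% of all genes). Of the 48, edgeR called 2 and DESeq2 called 4, where these tools called 3.03% and 10.8% of all genes. Igfbp1, an insulin-repressed FOXA target, had 1671, 995 and 2515 scaled reads in WT and 7154, 3842 and 11451 in KO (log2 2.08, limma adjusted p = 0.0536). Gys2, the liver glycogen synthase and a C/EBP target, had 6465, 6265 and 11165 against 2502, 3598 and 3490 (log2 -1.28, limma adjusted p = 0.0537). The WT and KO libraries of Igfbp1 and Gys2 did not overlap, as for 11 of the 48 targets and 26% of all tested genes. For these 2 genes edgeR made a call. Without WT replicate 3 limma called both, at 2.40 (adjusted p = 0.0213) and -1.01 (0.0262). Pck1, the gluconeogenic enzyme that FOXA, C/EBP and ONECUT1 share as a target, had 31824, 72619 and 48535 against 85344, 80752 and 120443 (log2 0.96, limma adjusted p = 0.163).

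By factor, 20 HNF4A targets had a median of -0.11 in mRNA, 11 FOXA targets 0.26, 14 C/EBP targets 0.38, 9 NR5A2 targets 0.095 and 6 ONECUT1 targets 0.42. The HNF4A list ran from Apoa2 at -0.80, where WT replicate 3 held 265011 against 81754 and 81939, to the thyroxine carrier Ttr at 0.67. Without WT replicate 3 the difference of Apoa2 was -0.24 (limma adjusted p = 0.509). The acute phase gene Hp had 64024, 47739 and 38069 in WT and 99009, 92648 and 99674 in KO (log2 0.99, limma adjusted p = 0.0763). The NR5A2 target Cyp7a1, the rate-limiting enzyme of bile acid synthesis, differed by -0.72 (limma adjusted p = 0.300).

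In newly made RNA the 5 target lists had medians below 0 in both methods. These are values of single libraries per genotype, and 7564 of all 15131 genes in EU and 7724 of 15449 in Br lay below 0 by construction. The C/EBP targets had a median centred EU ratio of -0.71 and a Br ratio of -0.51, and 10 and 12 of the 14 were below 0. The NR5A2 targets had -0.71 and -0.30, with 9 and 8 of 9 below 0. For the HNF4A targets the medians were -0.25 and -0.10, with 12 and 13 of 20 below 0, and the Br median was about that of mRNA. The FOXA targets had -0.30 and -0.17, with 6 and 8 of 11 below 0. The ONECUT1 targets had -0.32 and -0.18, with 4 and 3 of 6 below 0.

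**Figure D4:**
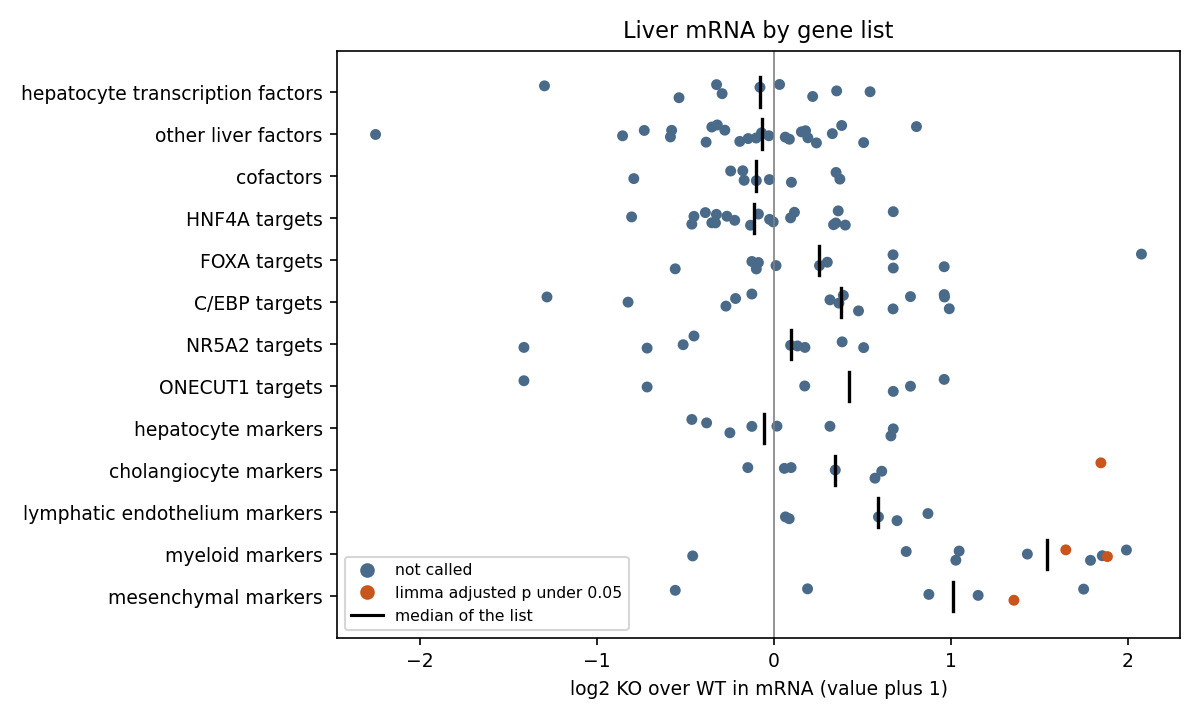
Log2 KO over WT in mRNA for every tested gene of each list, one dot per gene, with a black bar at the median of the list and orange dots for genes at a limma adjusted p under 0.05. No dot is orange among the hepatocyte transcription factors, other liver factors, cofactors, targets and hepatocyte markers, while the myeloid list has a median of 1.54.

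Markers of other liver cells, some of which also make these factors, differed in how far they moved with genotype. Over all tested genes limma called 2.71%. Myeloid markers summed to 4028 to 4449 scaled reads in WT and 6400 to 12664 in KO, with Csf1r and Cd14 called among 10, Itgam at -0.46, none at 0 and a median of 1.54. In newly made RNA their median was 2.29 in EU (8 with enough reads) and 0.013 in Br (6 with enough reads). Cholangiocyte markers, from ducts that express Onecut1 and Foxa genes, summed to 604 to 721 and 1057 to 1984. Spp1, the only one called among 7 tested, had 263, 301 and 470 in WT and 1569, 1387 and 803 in KO. Without Spp1 the cholangiocyte sums were 365, 303 and 251 in WT and 415, 288 and 254 in KO, which overlapped. The duct genes Krt7 (0.059), Krt19 (-0.15) and Sox9 (0.097) did not pass the test, and Cldn4 was at 0 in some libraries. Mesenchymal markers summed to 1049 to 2650 and 2218 to 5002, which overlapped, with Pdgfrb called among 6 and Acta2 at -0.56. In newly made RNA, from single libraries per genotype, the cholangiocyte median was 2.79 in EU (5 with enough reads) and 1.05 in Br (4). The mesenchymal median was 3.65 in EU (5) and 1.18 in Br (6). For the lymphatic endothelium markers it was 0.25 in EU (3) and 0.22 in Br (3). Of the pancreatic acinar markers only Cela1, which liver also expresses, passed the mRNA filter, and the other 5 were at 0 in some mRNA libraries. In Br all 6 acinar markers had enough reads, with a median ratio of -0.86, and in EU only 1 had. The part of these cells in the values of the 9 factors was not tested.

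Over the 6 mRNA libraries, the gene whose log2 values followed Hnf4a most closely was Rps25, a ribosomal protein gene (Pearson 0.999), and 253 tested genes exceeded 0.95 with Hnf4a. For Onecut1 it was Txndc5 (0.988, 59 genes above 0.95) and for Foxa3 Cep63 (0.994, 24 genes). For Prox1 it was Gm10154 (0.995), for Nr5a2 Slc35e3 (0.996), for Cebpa Dlec1 (0.991), for Cebpb Cnnm4 (0.991) and for Foxa1 Tnfrsf26 (0.973). With 6 libraries and 16813 genes such values describe these libraries, which share depth and the position of WT replicate 3.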

How the data were processed

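The 9 genes and all lists were chosen with earlier results of these data known. The authors deposited mRNA values as a score, reads scaled between libraries with DESeq size factors and rounded, per the file names and values. Nascent RNA was deposited by the authors as raw counts per gene, and as RPKM in a table of the authors. The submitters' processing notes list TopHat2, Bowtie2, Cufflinks, DESeq and mm9 without roles. Counter, strand setting and annotation are not given in the sources used here. All Br counts were even and were divided by 2. The implied RPKM lengths were far from exon lengths (104 bp against 8390 for Prox1), so reads were used for ratios, plus 0.5. Symbols came from GENCODE M21 and matched 32860 of 37583 rows.

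Scaled values plus 1 were tested with limma 3.58.1 (trend, robust) in R 4.3.3, over genes with at least 10 in at least 3 libraries, checked on simulated data. Benjamini-Hochberg adjustment ran over all tested genes. Named besides the 9 are Kmt5a, called list genes, the 2 largest differences per list and the closest gene in pattern. Hnf4aos, Prox1os, Tmem189, Ppara and the markers named singly were added after their values were seen. Alternatives were edgeR 4.0.16 and DESeq2 1.42.0 on reads re-estimated from rounding steps, other pseudocounts, filters and scalings, a replicate block and each library left out. Chromatin and input samples (24) were not used. Some genes that the naming rule picks are not reported here.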

Additional observations from a re-analysis of the deposited data

Results flagged for a closer look

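Cebpa stood on opposite sides of the median gene in the 2 methods for newly made RNA, with a centred log2 ratio of KO to WT of -1.14 in EU and 0.17 in Br and counting intervals without 0 in both. The difference between the methods was not tested, since each has 1 library per genotype.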

How the results depend on the processing

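Of the 9 factors, 0 were called in each alternative except DESeq2, which called 1 (10.8% of all genes). Among other liver factors and cofactors DESeq2 called 2. With a library left out the count ran from 0 to 3, the 3 without WT replicate 3 (9.69% of all genes). Among target genes edgeR called 2 (3.03% of all genes) and DESeq2 called 4 (10.8%). With a library left out 0 to 2 were called, with 2 called without WT replicate 3 (9.69%). For the settings that follow, the share of all genes called is not given here. Of the target genes 2 were called with a pseudocount of 10, 2 without a filter, 2 with a minimum of 1 CPM, 1 with TMM scaling and 2 with upper-quartile scaling. The cause of these differences in count was not tested. The difference of Hnf4a changed sign with edgeR (-0.016) and DESeq2 (-0.016) and ran from -0.15 to 0.33 with a library left out. That of Foxa1 changed sign with TMM scaling (0.013) and ran from -0.41 to 0.14. The number of factors 2-fold different in EU and Br was 4 and 0 without centring, with centring on genes of at least 100 reads and with RPKM. Deviations of same-numbered WT and KO libraries from their group means correlated at 0.41 for number 1, -0.24 for 2 and 0.20 for 3. Differently numbered pairs ran from -0.39 (WT 3 with KO 1) to 0.27 (WT 3 with KO 2), above the value for number 3. The labels do not say whether a shared number marks a shared batch, and this was not tested. With a replicate block 0 of the 9, 0 of the other factors and 3 target genes were called, where 6.03% of all genes were. With that block the Cebpa to Cebpb difference was -0.68 (exact sign-flip permutation p = 0.25, the smallest that 3 pairs can give). With 3 libraries a group, the 95% limma intervals of the 9 factors reached down to 0.17-fold (Onecut1) and up to 2.11-fold (Prox1), and nascent RNA has no replicates.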
